A study of Mus musculus with 2 samples.

Results

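The genes described here encode the initiation and elongation factors of cytosolic protein synthesis, taken as a list of 41 protein-coding genes, and the measurement is where KMT2D, a histone H3K4 methyltransferase, was bound at or near them. All 41 symbols matched the RefSeq gene table, which holds 21770 protein-coding genes on the main chromosomes. A gene counted as having a KMT2D peak when a summit lay inside it or within 10 kb of it on mm10. By this rule 11 of the 41 genes had a peak, and they shared 14 of the 3706 peaks that the authors placed on the chromosomes. The members are a list of gene names, but the list was selected on measured values: in these same data, the count of such genes with a summit near a gene end was already known when it was drawn up. Every count below is therefore a description with no test.

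The series used HT22, an immortalised mouse hippocampal cell line. The library analysed came from its wild-type cells, labelled as a wild-type clone and collected at 70% confluency, by chromatin immunoprecipitation with an anti-KMT2D antibody (Millipore ABE1867), and it was set against 1 input library of the same wild-type cells made without antibody. Cells with a deletion of the KMT2D SET domain, which the design also names, are not analysed here. Neither library has a replicate, and the values speak for 1 clone. Peaks do not measure expression, so the hippocampal identity of the cells could not be checked with marker genes.

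Translation begins when eIF2, carrying the initiator tRNA, and eIF3 load the small ribosomal subunit, and eIF4F brings it to the capped end of the mRNA. eIF4F joins the cap-binding protein eIF4E, the scaffold eIF4G and the RNA helicase eIF4A, and its assembly is held back by the 4E-binding proteins. Elongation then runs on eEF1A, which delivers aminoacyl-tRNA, the eEF1B exchange complex, which recharges eEF1A with GTP, and the translocase eEF2, which is inhibited when eEF2 kinase phosphorylates it. KMT2D is known for methylating H3K4 at enhancers and also binds at promoters.

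Near their own starts, 8 of the 41 genes had a KMT2D peak. RefSeq promoters (GRCm38.p6, the build named mm10) are shown for the 4 of them whose peak reached into the sequence printed. Each runs from 250 bases before the listed start to 20 bases after it, 5′ to 3′ on the strand of the gene. Capitals mark matches, on either strand, to any of 8 short promoter motifs, whose letters are given with the motif counts over all promoters.
Eef1a1: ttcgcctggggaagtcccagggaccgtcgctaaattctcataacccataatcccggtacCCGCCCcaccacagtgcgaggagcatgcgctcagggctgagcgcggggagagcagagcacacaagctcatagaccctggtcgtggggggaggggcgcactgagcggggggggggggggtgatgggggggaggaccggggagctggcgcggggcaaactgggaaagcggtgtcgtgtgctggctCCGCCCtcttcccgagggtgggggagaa
Eef2: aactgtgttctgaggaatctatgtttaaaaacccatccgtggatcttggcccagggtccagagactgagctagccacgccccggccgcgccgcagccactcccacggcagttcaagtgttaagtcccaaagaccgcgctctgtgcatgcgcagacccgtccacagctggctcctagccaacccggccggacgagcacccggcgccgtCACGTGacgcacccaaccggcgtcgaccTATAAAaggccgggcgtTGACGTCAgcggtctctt
Eif3g: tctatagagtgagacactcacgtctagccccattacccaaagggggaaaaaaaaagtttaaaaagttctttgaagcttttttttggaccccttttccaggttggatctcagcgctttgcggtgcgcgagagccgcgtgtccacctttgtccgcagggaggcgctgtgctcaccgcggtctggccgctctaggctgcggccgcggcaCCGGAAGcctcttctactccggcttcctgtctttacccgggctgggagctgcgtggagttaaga
Eif4a2: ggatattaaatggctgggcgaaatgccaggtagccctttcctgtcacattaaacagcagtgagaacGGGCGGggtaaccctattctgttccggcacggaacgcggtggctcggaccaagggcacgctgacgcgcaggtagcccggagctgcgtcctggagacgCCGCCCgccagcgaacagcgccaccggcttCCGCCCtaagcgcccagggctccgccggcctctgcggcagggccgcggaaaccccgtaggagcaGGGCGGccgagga
The Eef1a1 window is chr9:78481705-78481974 on the minus strand, and all 270 of its bases lay in the peak. The Eef2 window is chr10:81176381-81176650 on the plus strand, with 4 bases in the peak, which lay mostly farther into the gene. The Eif3g window is chr9:20898571-20898840 on the minus strand, with 81 bases in the peak. The Eif4a2 window is chr16:23107218-23107487 on the plus strand, with 206 bases in the peak.

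No motif was found in all 4 of these printed stretches, and GC boxes were found in both Eef1a1 and Eif4a2. Positions give the leftmost base of each match, counted from the listed start as base 1, with negative positions before it. Eef2 carried an E-box at -43, a TATA box at -15 and a CRE at 3. Eef1a1 had GC boxes at -191 and -8, and Eif4a2 had GC boxes at -184, -87, -57 and 8. Eif3g had only an ETS core, at -44.

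Elongation factor genes carried a peak in 4 of 7 cases, against 12.1% of all protein-coding genes (2636 of 21770). They were Eef1a1, Eef1g, Eef2 and Eef2k, while Eef1a2, Eef1b2 and Eef1d had none. Initiation factor genes carried a peak in 7 of 34 cases (20.6%), namely Eif3b, Eif3d, Eif3g, Eif4a1, Eif4a2, Eif4b and Eif4h. The classes follow gene names, so the kinase gene Eef2k counts as elongation, and Eif4a3 and Eif5a count as initiation. The difference between both classes was not tested. The share over all 41 genes was 26.8%. A summit within 2 kb of a gene end was found at 8 of the 41 genes, beside 5.08% of all protein-coding genes, and for all 8 that end was the start of the gene. Of these 8, Eef1a1 and Eef2 are elongation factor genes and the other 6 initiation factor genes.

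The count was also taken with other windows and stricter peaks. Inside the gene itself a summit lay at 5 of 41 genes, beside 6.72% of all protein-coding genes, and within 2 kb at 8, beside 8.82%. Within 5 kb there were 10, beside 10.1%, and within 20 kb 13, beside 15.7%. Peaks whose −log10 q reached the list median of 8.21 gave 4 genes (Eef1a1, Eef1g, Eef2k and Eif4b), beside 5.92%. Peaks whose fold reached the upper quartile of the list, 5.77, gave 2 genes (Eef2k and Eif4b) of the 41, beside 3.03%. None of the start peaks reached that fold.

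**Figure D1:**
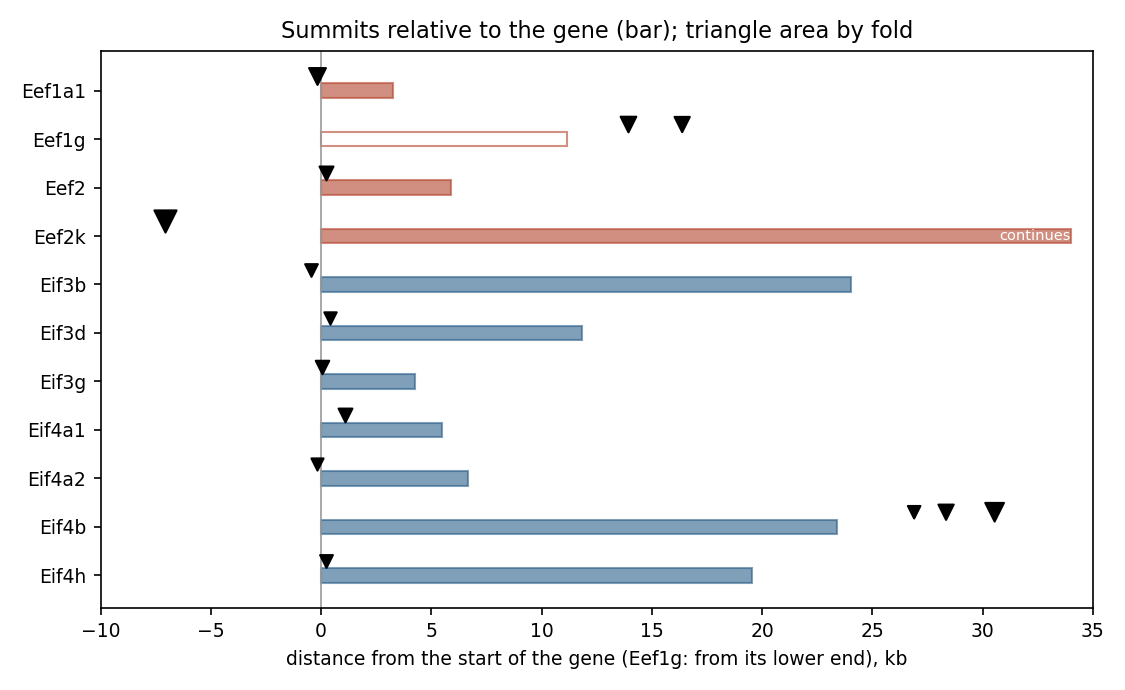
Position of the 14 summits (triangles, area by fold) at the 11 genes with a peak. The x axis is the distance in kb from the start of the gene, bars are the genes (red elongation, blue initiation, Eef2k cut at the right edge), and Eef1g, which has no start in the promoter table, is drawn open from its lower end. In 8 genes the triangle sits at the start, and at Eef1g, Eef2k and Eif4b it lies outside the gene.

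Among the elongation factors, Eef1a1, which encodes the carrier of aminoacyl-tRNA, had the highest fold at a start. Its peak covered chromosome 9 from 78481414 to 78482075, 662 bp, with the summit 166 bp upstream of the start. The authors' fold over background, which is the value their peak caller gave to the summit and is used here only to describe and rank peaks within this list, was 5.45. The summit carried 28 ChIP fragments over a background of 4.32, which gives the fold an exact 95% Poisson interval of 3.68 to 7.79. Such intervals hold the background fixed and cover counting error only. The fold lay above that of 70.0% of all peaks. Of the peak, 311 bases lay in the gene itself. Eef1a1 sequence has close copies elsewhere in the genome, and how reads with several matches were handled is not given in the sources used here. Its paralog Eef1a2, the form of eEF1A made in neurons and muscle, had its nearest summit 856019 bp away.

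Eef2, the translocase, had a weaker peak just inside the gene. It spanned chromosome 10 from 81176647 to 81176930, with the summit 217 bp after the start. The fold was 3.74 (2.55 to 5.32), from 29 fragments over 7.02, and its −log10 q was 6.18. The intervals of Eef1a1 and Eef2 overlapped, so their order is not firm at this depth. Snord37, a small nucleolar RNA gene hosted by Eef2, lay 2113 bp from the summit.

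At Eef1g and Eef2k the peaks lay away from the gene. Eef1g, the scaffold subunit of eEF1B, had summits 2802 and 5238 bp beyond its upper end, on chromosome 19, in the space before Ahnak, which encodes a very large scaffold protein. Their folds were 4.70 (3.08 to 6.90) and 4.48 (3.33 to 5.91). The second peak was the widest at any of the 41 genes, 900 bp from 8982660 to 8983559, with 48 fragments over 9.94. It lay 5866 bp from Ahnak, about as far as from Eef1g. A further summit lay 12146 bp from Eef1g, past the 10 kb limit, with a fold of 5.81. That summit was inside Ahnak, near its listed start.

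Eef2k had the highest fold of all 14 peaks, 9.42 (6.82 to 12.7), from 41 fragments over 3.46. The peak spanned chromosome 7 from 120835363 to 120835684 and lay 7090 bp outside Eef2k, on its upstream side. Its summit fell inside the tRNA gene n-TLtag1, from 120835479 to 120835560, and the nearest other protein-coding gene, Gm5737, was 3653 bp away. It was the only one of the 14 peaks within 500 bp of a small RNA gene, and without such peaks Eef2k had none and the elongation factor genes with a peak were 3 of 7, beside 11.6% of all protein-coding genes. A second strong summit lay just outside the limit on the other side, 10351 bp from Eef2k, with a fold of 8.24 (6.16 to 10.8). Its peak, from 120917474 to 120918047, lay at the listed start of another gene, Polr3e. That start was 82226 bp from the summit in the tRNA gene.

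**Figure D2:**
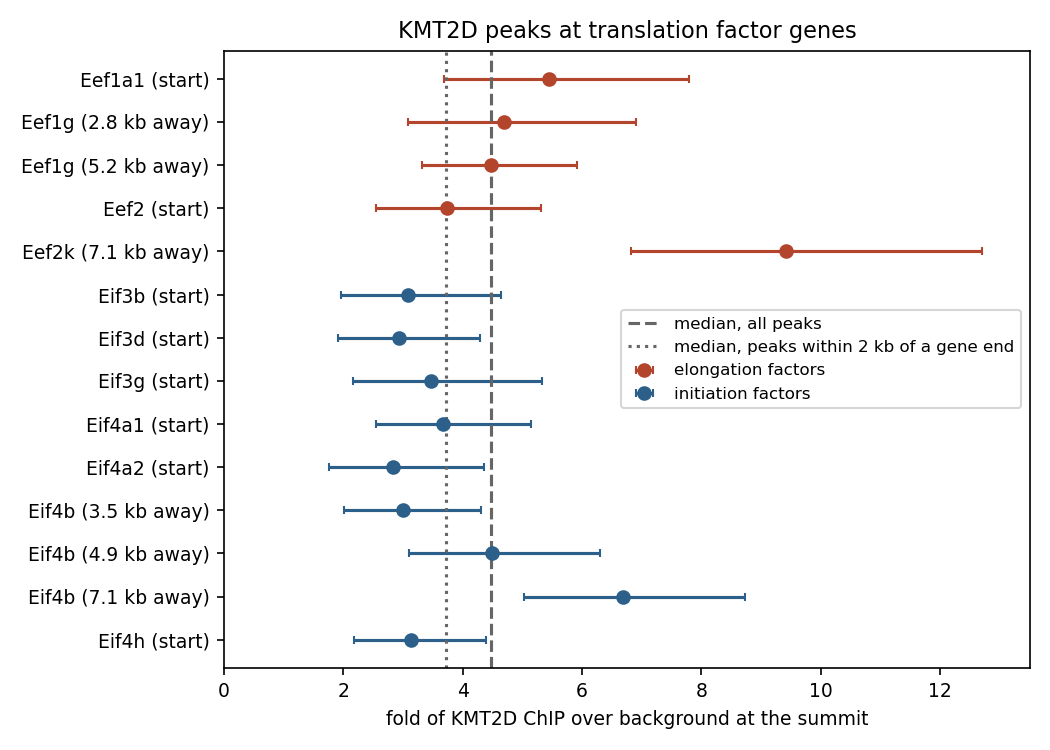
Fold of KMT2D ChIP over background at each of the 14 summits with exact 95% Poisson intervals (counting error only), red for elongation and blue for initiation factors. Dashed and dotted lines are the medians of all peaks (4.47) and of peaks within 2 kb of a gene end (3.72). The intervals of Eef2k and the farthest Eif4b peak lie wholly right of both lines, and those of Eif3d, Eif4a2, Eif4h and the nearest Eif4b peak lie left of the dashed line.

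The eIF3 complex, which bridges the small subunit and the mRNA, had peaks at 3 of 13 genes (23.1%), beside 12.1% of all protein-coding genes. All 3 lay at the start, where a summit within 2 kb of a gene end was found at 5.08% of all genes. Eif3b encodes a core subunit. Its summit lay 450 bp upstream of the start, in a peak on chromosome 5 from 140418738 to 140418965, with a fold of 3.08 (1.96 to 4.63) and 21 fragments. Eif3d encodes the subunit known for binding the cap of some mRNAs. Its summit lay 393 bp inside the gene, in a peak on chromosome 15 from 77970385 to 77970644, with a fold of 2.92 (1.92 to 4.29) and 24 fragments. Eif3g, another core subunit, had its summit 18 bp inside the gene, the closest to a start of all members, in a peak on chromosome 9 from 20898360 to 20898651. The fold there was 3.47 (2.16 to 5.33), from 19 fragments over 4.76. The intervals of the 3 overlapped widely. The other 10 genes, Eif3a, Eif3c, Eif3e, Eif3f, Eif3h, Eif3i, Eif3j1, Eif3k, Eif3l and Eif3m, had no peak.

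Among the eIF4 genes, start peaks lay at both helicase genes of eIF4F and at the cofactor gene Eif4h. Eif4a1, the main helicase of eIF4F, had its summit 1065 bp inside the gene, in a peak on chromosome 11 from 69671237 to 69671477. Its fold was 3.67 (2.55 to 5.14), from 32 fragments over 7.99, and the nearest snoRNA gene inside Eif4a1 was 1580 bp away. Its paralog Eif4a2 had the lowest fold of the 14, 2.84 (1.76 to 4.35), from 19 fragments over 6.05, with the summit 167 bp upstream in a peak on chromosome 16 from 23107282 to 23107531. The −log10 q of that peak was 1.92, close to the lowest in the whole deposited list (1.32). Eif4h, which stimulates eIF4A, had its summit 199 bp inside the gene, in a peak on chromosome 5 from 134639074 to 134639328, with a fold of 3.14 (2.18 to 4.39) and 32 fragments.

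Eif4b, the other cofactor of eIF4A, had 3 peaks within 10 kb, all beyond the end of the gene and all inside Tns2, which encodes a focal adhesion protein. Along chromosome 15 the summits lay 3499, 4947 and 7149 bp past Eif4b, with folds of 2.998 (2.01 to 4.31), 4.48 (3.09 to 6.31) and 6.68 (5.02 to 8.72). The middle summit was 814 bp from the listed start of Tns2, and the strongest, with 52 fragments, 1388 bp from it. When each peak was given only to the nearest protein-coding gene, Eif4b and Eef2k lost their peaks and 9 of the 41 genes had one, beside 9.19% of all protein-coding genes. Neither Eif4e, the cap-binding protein, nor its inhibitors Eif4ebp1 and Eif4ebp2, nor the scaffolds Eif4g1, Eif4g2 and Eif4g3, nor Eif4a3, the helicase of the exon junction complex, had a peak. That left 4 of 11 genes of this group with a summit within 10 kb, beside 12.1% of all protein-coding genes, and 3 with one at the start, beside the 5.08% with one near an end.

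Genes for start codon selection and the eIF2 cycle had no peak in any of 7 cases: Eif1, Eif1b, Eif2s1, Eif2s2, Eif2b1, Eif2b5 and Eif5. For 0 of 7 genes the 95% Wilson interval reaches up to 35.4%, beyond the 12.1% of all protein-coding genes. It treats the genes as independent draws, which a chosen list is not, and a shortfall was not tested. Eif5a, which helps ribosomes through difficult peptide bonds, Eif5b, the GTPase of subunit joining, and Eif6, which keeps large subunits from joining too early, had none either. Eif6 and Eif3k were the closest to the 10 kb limit on its outer side, with summits at 13065 bp (fold 5.94) and 18378 bp (fold 4.91). On the inner side the farthest members were Eef2k at 7090 bp and Eif4b, whose nearest summit lay at 3499 bp. The 30 genes without a peak had their nearest summit at a median of 116960 bp, and 6 of them had a summit within 50 kb. The farthest was that of Eif3m, at 1432794 bp.

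**Figure D3:**
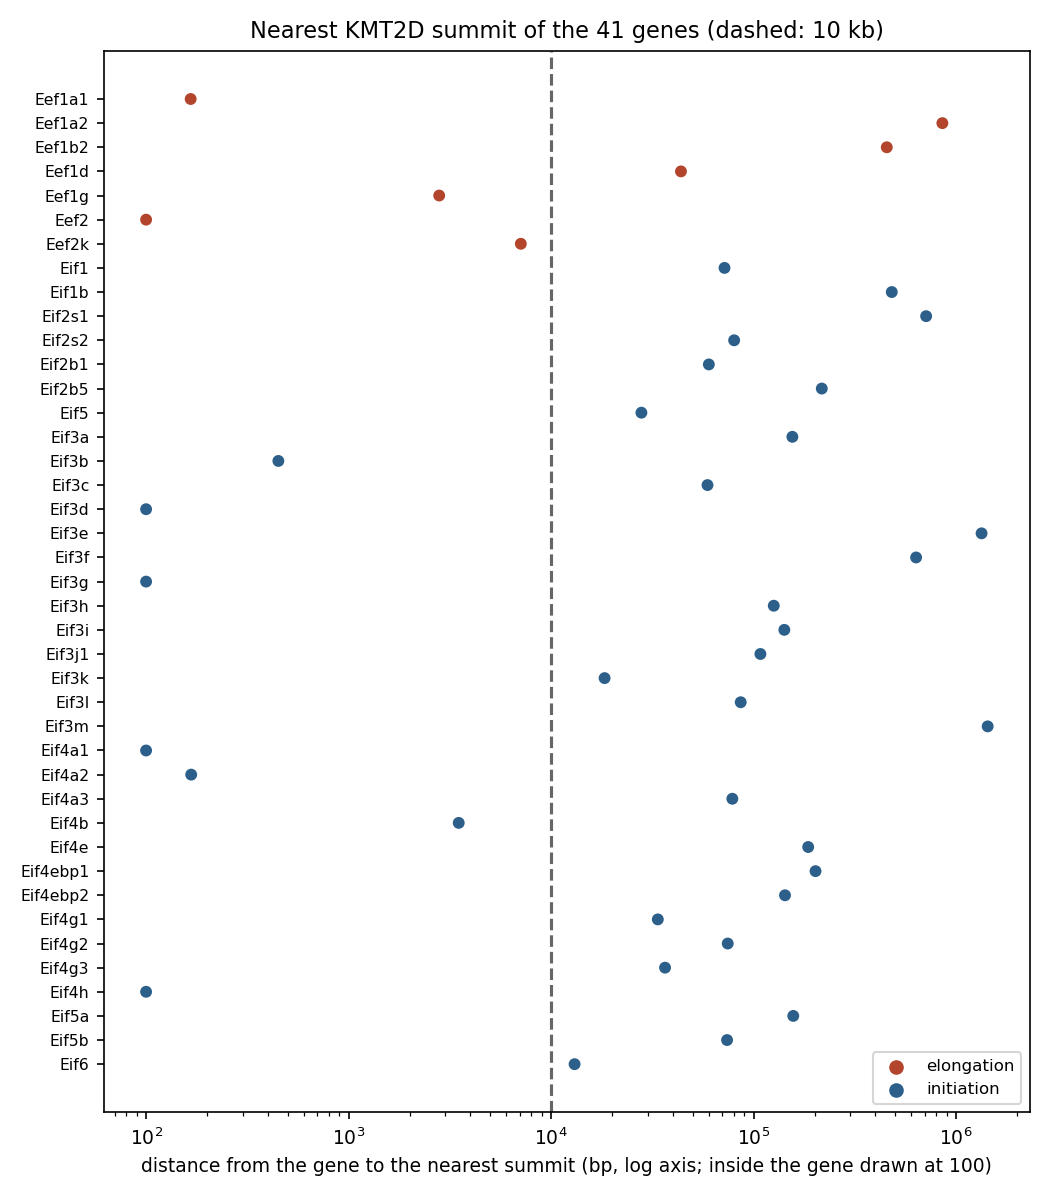
Distance in bp, on a log axis, from each of the 41 genes to its nearest KMT2D summit, with summits inside a gene drawn at 100 bp and the 10 kb limit dashed. Red points are elongation and blue points initiation factors; no gene lies between 7090 bp (Eef2k) and 13065 bp (Eif6).

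The start peaks had a lower median fold than the distant peaks. The whole list was split by gene ends, not by starts, and peaks near an end likewise had the lower median. The 8 start peaks had a median fold of 3.31 (2.84 to 5.45), and the median of all 1006 peaks within 2 kb of a protein-coding gene end was 3.72. Only 2 of the 8, Eef1a1 and Eef2, were above that median, and only Eef1a1 was above the 4.47 of all peaks. The 6 distant peaks had a median fold of 4.59 (2.998 to 9.42), and 5 of them were above 4.47. The median of the 2700 peaks of the list that lay farther than 2 kb from any protein-coding gene end was 4.73. Of the 6, 2 were above it, those of Eef2k and the farthest Eif4b summit. The 6 were set apart by the ends of the member alone, so the 2 sets follow unlike rules. The middle and farthest Eif4b summits lay 814 and 1388 bp from the listed start of Tns2. The ChIP fragments at the start summits ran from 19 to 32 with a median of 26, and those at the distant summits from 24 to 52 with a median of 36. Their backgrounds were alike, with medians of 6.58 and 6.53. This difference was not tested. The interval held the median of all peaks for 8 of the 14 peaks, lay above it for 2 and below it for 4.

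**Figure D4:**
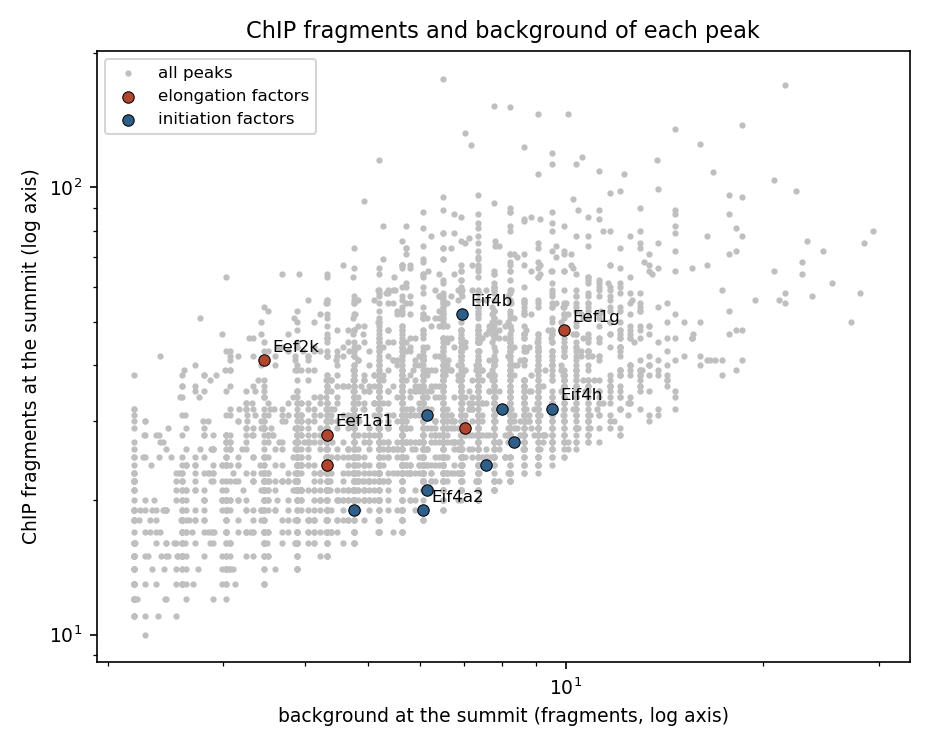
ChIP fragments against background fragments at the summit, both on log axes, for 3621 peaks with a background under 30 and under 200 fragments (grey) and the 14 peaks at elongation (red) and initiation (blue) factor genes. Eef2k and the strongest Eif4b peak lie high in the cloud for their background, and Eif4a2 lies at its lower edge.

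Starts were the side on which peaks gathered genome-wide too. Of the 41 genes, 33 have a listed start, and 8 of these 33 had a summit within 2 kb of it, beside 4.72% of all protein-coding genes with a listed start (826 of 17491). Eef1d, Eef1g, Eif3e, Eif3h, Eif3i, Eif4ebp1, Eif4g2 and Eif6 are not in that table. Among the 14730 protein-coding genes with 1 listed start, 578 had a summit near the start only, 113 near the other end only and 33 near both. Of the 8 start summits here, 5 lay inside the gene and 3 upstream, 7 of them within 500 bp of the start.

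Promoters of these genes held more CpG than the average promoter, and starts with more CpG had a peak more often genome-wide. The median was 24 CpG in the 300 bases from 250 before to 50 after the start for the 33 members, against 13 for all 17491 genes. Over all genes, the share with a start summit was 0.755% at 0 to 3 CpG, 2.79% at 4 to 12, 5.64% at 13 to 23 and 9.29% at 24 to 65. Of the members, 28 had 13 or more CpG, where 7.54% of all genes had a start summit, and 8 of these 28 did. The members with a start peak had the same median of 24 CpG as the other 25 members, and the part of CpG content in the members' count was not tested.

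The 8 motifs were searched in these 300 bases on both strands, and a base could count in more than 1 motif. A GC box, GGGCGG, was found in 22 of 33 members (66.7%) and in 46.3% of all promoters, and in 6 of the 8 with a start peak. An E-box, CACGTG, was found in 9 members (27.3%) against 7.90% of all, and in 3 of the 8, Eef2, Eif4a1 and Eif4h. An ETS core, CCGGAAG, was found in 8 members (24.2%) against 11.9%, including Eif3d and Eif3g. The letters CCAAT were found in 7 members (21.2%) against 39.0% of all, and among the start-peak genes at Eif4a1 alone. A TATA box, TATAAA, was found in 4 members (12.1%) against 13.3%, including Eef2 and Eif3b. A CRE, TGACGTCA, was found in 1 member, Eef2, against 2.34% of all promoters. The AP-1 motif TGACTCA was found in 3 members against 4.58% of all, and in none of the 8. The letters TCTCGCGA were found in 2 members against 1.52% of all, and likewise in none of the 8. Among the 25 other members a GC box was found in 16 (64%), an E-box in 6 (24%) and an ETS core in 6 (24%). The letters CCAAT were found in 6 of those 25 (24%) and a TATA box in 2 (8%). The difference between the 8 and the 25 was not tested. A match is a stretch of letters and shows no binding, and no match says nothing of the factor.

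Over the genome, longer genes had a summit more often. The share of protein-coding genes with a summit inside or within 10 kb was 6.69% for lengths of 144 to 5709 bp, 11.2% for 5710 to 17219 bp, 12.6% for 17220 to 44482 bp and 17.9% above that. Of the 7 shortest members, of up to 5709 bp, 3 had a peak (Eef1a1, Eif3g and Eif4a1). The next ranges of length held 4 of 16, 3 of 14 and 1 of 4 members with a peak. The median length was 11140 bp for the 11 genes with a peak and 15294 bp for the other 30.

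Small RNA genes lay inside 12 of the 41 genes. In 3 of the 12, Eif3b, Eif4e and Eif4g3, they were miRNA genes only, in Eif3c an snRNA gene, and in the other 8 snoRNA genes, with a miRNA gene as well in Eif3a. Of these hosts 4 had a peak (Eef2, Eif3b, Eif4a1 and Eif4a2), beside 19.7% of all protein-coding genes with a small RNA gene inside. Of the 29 other genes 7 did, beside 11.6% of those without one. None of the 4 host summits lay within 500 bp of a small RNA gene.

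Several members are known as terminal oligopyrimidine (TOP) mRNAs, whose translation depends on mTORC1. Of 9 such members, Eef1a1, Eef1g, Eef2 and Eif4b had a summit within 10 kb, of which Eef1a1 and Eef2 at the start. Eef1b2, Eef1d, Eif3e, Eif3f and Eif3h had none. From the listed start onward, the unbroken run of C or T was 5 bases at Eef1a1, 0 at Eef2 and Eef1b2, 1 at Eif4b and 11 at Eif3f. Eef1d, Eef1g, Eif3e and Eif3h have no listed start. Summit offsets and motif positions are counted from the listed starts, and whether these cells use those starts was not tested. Cytosolic ribosomal protein genes, which are TOP mRNAs as a class, had a summit within 10 kb in 6 of 79 cases (7.59%), beside 12.1% of all protein-coding genes. A summit within 2 kb of a gene end lay at 5 of the 79, beside 5.08% of all protein-coding genes. Neither share was tested or matched for gene length. Over all protein-coding genes the share within 10 kb was 6.69% at lengths of 144 to 5709 bp and 17.9% for the longest genes. Among the 6 were Rps29 (9.37), Rps14 (4.09) and Rps2 (3.47).

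Among other genes of translation, also to be read beside 12.1% of all protein-coding genes, the remaining initiation factor genes had 3 of 21 (14.3%), at Eif3j2 (5.95), Eif1ad (4.52) and Eif2b4 (2.96), of which only the Eif1ad summit lay within 2 kb of an end. Relatives and modifiers of elongation factors had 1 of 11, Eefsec (2.95), which delivers selenocysteine. Termination and recycling factors had 2 of 7, the release factor gene Etf1 (5.01, from 15 fragments) and the ribosome rescue factor gene Pelo (5.01, from 15 fragments). Genes of poly(A) binding and cap regulation had 2 of 12, the eIF4E kinase gene Mknk2 (4.98) and Pabpc1 (3.35). Mitochondrial translation factors had 2 of 10, Gfm2 (3.77) and Mtif2 (2.78).

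The kinases and phosphatases of eIF2 alpha, with the stress factors they induce, had 2 of 8, again beside 12.1% of all genes: the stress transcription factors Ddit3 (8.51) and Atf4 (2.29), and no kinase. The mTORC1 genes had 4 of 13. They were Rptor (6.15), with a summit deep inside the gene, Rragd (4.51, 8917 bp away), Rragc (2.85) and the mTORC1 inhibitor gene Ddit4 (2.23). Cytosolic aminoacyl-tRNA synthetase genes had 4 of 20, Mars1 (8.51, 6978 bp away), Aars (8.12, 7033 bp away), Wars (5.33) and Yars (3.60). Another Aars summit, 914 bp from the gene, had a fold of 3.03. Mars1 and Ddit3 are neighbours and share both of their peaks, so these counts are not independent.

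**Figure D5:**
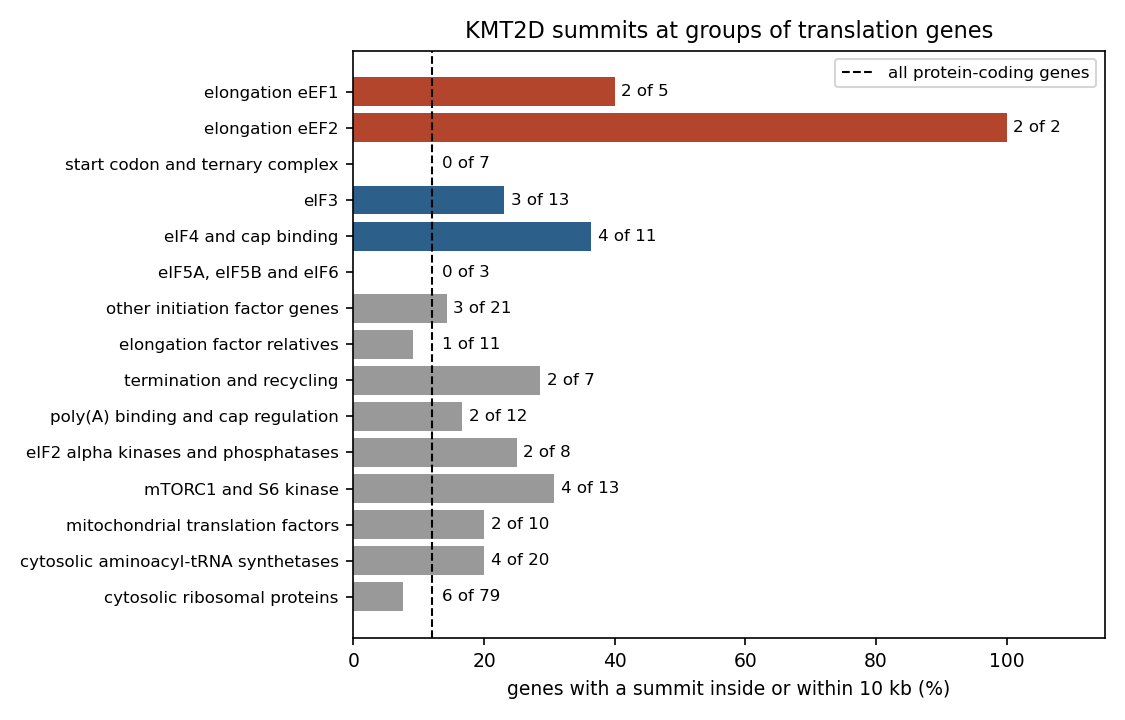
Percent of genes with a KMT2D summit inside or within 10 kb, for the groups of elongation (red) and initiation (blue) factors and for other lists of translation genes (grey), with the counts beside each bar. The dashed line is the 12.1% of all protein-coding genes; the eIF2 and start codon group and the eIF5A, eIF5B and eIF6 group have no gene with a summit, and ribosomal proteins (6 of 79) lie left of the line.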

How the data were processed

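KMT2D ChIP and input were measured in wild-type HT22 cells, 1 library each. Per the submitters' processing notes, the tools were Bowtie2, Picard and MACS2 on mm10, with no settings stated there. The deposited file is a list of 3738 peaks made by the authors. Each peak has a fold, the ratio of ChIP over background where the pileup is highest, and −log10 p and −log10 q, all as the authors' caller wrote them. Positions are counted from 1.

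From fold and p-value the ChIP fragments and background at each summit were solved as MACS2 defines them, (n + 1)/(b + 1) and a Poisson tail, with the −log10 p met within 0.001 for 3694 of 3738 peaks and all 14 reported. Pileups of 19 to 52 fragments set the precision. On simulated data all 2000 pileups and all 200 planted genes were recovered.

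Genes came from RefSeq GRCm38.p6 and starts from its promoter table. The 1 unmatched name of the other lists was Nars1. No test was run, and shares are read beside those of all protein-coding genes. The members, lists and windows were chosen with earlier results of these data known. Every member with a summit is named, and up to 4 genes per other list by highest fold, except 1 that is not reported here. The motifs, CpG, length and small RNA host comparisons and genes just outside the limit were added after seeing the data. Alternatives were other windows, stricter peaks, whole intervals, nearest gene and peaks left out. Python 3.11.15, pandas 2.3.3 and scipy 1.17.1 were used.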

Additional observations from a re-analysis of the deposited data

How the results depend on the processing

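The 11 of 41 genes became 8 with a 2 kb window, against 8.82% of all protein-coding genes. They were 10 with 5 kb, against 10.1%, and 13 with 20 kb, against 15.7%. The 20 kb window added Eif3k and Eif6. Counting only summits inside a gene left 5 genes, 1 elongation and 4 initiation factor genes, against 6.72% of all protein-coding genes, and a 2 kb window left 2 elongation factor genes. With only peaks whose −log10 q reached the list median, 4 genes had one (Eef1a1, Eef1g, Eef2k and Eif4b), of which 1 was an initiation factor gene, against 5.92% of all. With folds from the list's 75th percentile upward 2 genes did, Eef2k and Eif4b, 1 elongation and 1 initiation factor gene, against 3.03% of all. So of the start peaks only that of Eef1a1 passed the first of these thresholds, and none the second. Requiring a −log10 q of 2 removed Eif4a2 alone (10 genes, against 11.7% of all). Whole peak intervals and leaving out peaks of background over 20 fragments gave the same 11 genes (against 12.2% and 12% of all). With curated genes only, 12.4% of all genes had a peak. No paired analysis was possible because each group has 1 library and the counts come from no test.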
